A study of Mus musculus with 30 samples.

Results

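The leukocyte adhesion molecules and ligands are 9 genes that act in turn when a white blood cell leaves the blood: Icam1, Vcam1, Sele, Selp, Selplg, Itgal, Itgam, Itgb2 and Itga4. They were found as the 16 probes, of 55657 used, whose gene name in the array files is one of these symbols. After a filter on dim probes, 8 of the 9 genes were among the 23268 gene names tested. Sele was not.

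RNA of mouse aorta was measured on 30 one-colour arrays, 1 per sample, in 10 groups of 3, all with the strain label C57BL/6. B cell-deficient uMT mice and wild type (WT) mice each gave aortas at day 7 and at day 42 after 0.5 M CaCl2 was laid around the abdominal aorta, a treatment used to induce aneurysm. Sham aortas of the same days had saline in its place, and pre aortas came from mice with neither. All 30 samples carry the tissue label abdominal aortic aneurysm, the sham and pre aortas included. The labels do not say whether a sample is 1 animal or a pool, so the p-values measure the spread between these samples.

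Selectins on activated endothelium and platelets catch passing leukocytes by sugar chains carried on PSGL-1, the product of Selplg, and the cells roll. Integrins on the leukocyte then stop it: LFA-1 (Itgal with Itgb2) and Mac-1 (Itgam with Itgb2) hold ICAM-1, and VLA-4 (Itga4 with Itgb1) holds VCAM-1. The first group of molecules sits mainly on the vessel wall, and Selplg and the integrins mainly on leukocytes. In whole aortas, fewer or more cells of a type and less or more RNA per cell cannot be told apart.

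Levels below are log2 of the processed signal minus the 75th percentile of the array, so a difference of 1 is a 2-fold difference. Changes are log2 differences with their SE, and adjusted p-values come from limma with Benjamini-Hochberg adjustment over all 23268 gene names, with a call at 0.05. Over the arrays, 36.6 to 61.8% of the probes were well above background, and the 75th percentile ranged from 36.1 to 428 intensity units. WT sham day 42 replicate 2, called the dim array below, had the lowest of both values. It lay alone on 1 of the 5 slides and was scanned on another day, and its mean correlation with the other replicates of its group was 0.722. Member counts after CaCl2 are therefore given with and without it. Among the 6 arrays with the fewest probes above background were also uMT pre replicate 2 (42.4%) and uMT sham day 42 replicates 2 (47.8%) and 3 (45.8%). The rest were uMT CaCl2 day 42 replicates 1 (43.2%) and 2 (48.3%), so low signal also limits the uMT day 42 comparison.

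On average over the 4 pairs of groups, CaCl2 aortas carried more message than sham aortas for Selplg, Itgb2, Vcam1, Itgal and Itga4, each by its brightest probe. At uMT day 7 alone the changes of these genes ran from 0.07 for Itgal to 0.61 for Vcam1, and none was called. The average changes were 1.69 ± 0.32 for Selplg, 1.45 ± 0.28 for Itgb2, 1.31 ± 0.31 for Vcam1, 1.15 ± 0.19 for Itgal and 0.80 ± 0.22 for Itga4. Icam1 changed by 0.12 ± 0.32 (95% interval -0.55 to 0.78), Selp by -0.26 ± 0.24 (-0.76 to 0.24) and Itgam, by its brightest probe, by -0.25 ± 0.24. Thus 5 of the 8 tested members rose and none fell, where 27.1% of all gene names were called in either direction and 14.9% of all gene names were called higher. The median change of the 8 was 0.98, beside 0.02 over all gene names. Without the dim array the same count was 5, with 45.0% of gene names called, and the 5 changes were between 0.58 for Itga4 and 1.43 for Itgb2.

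**Figure D1:**
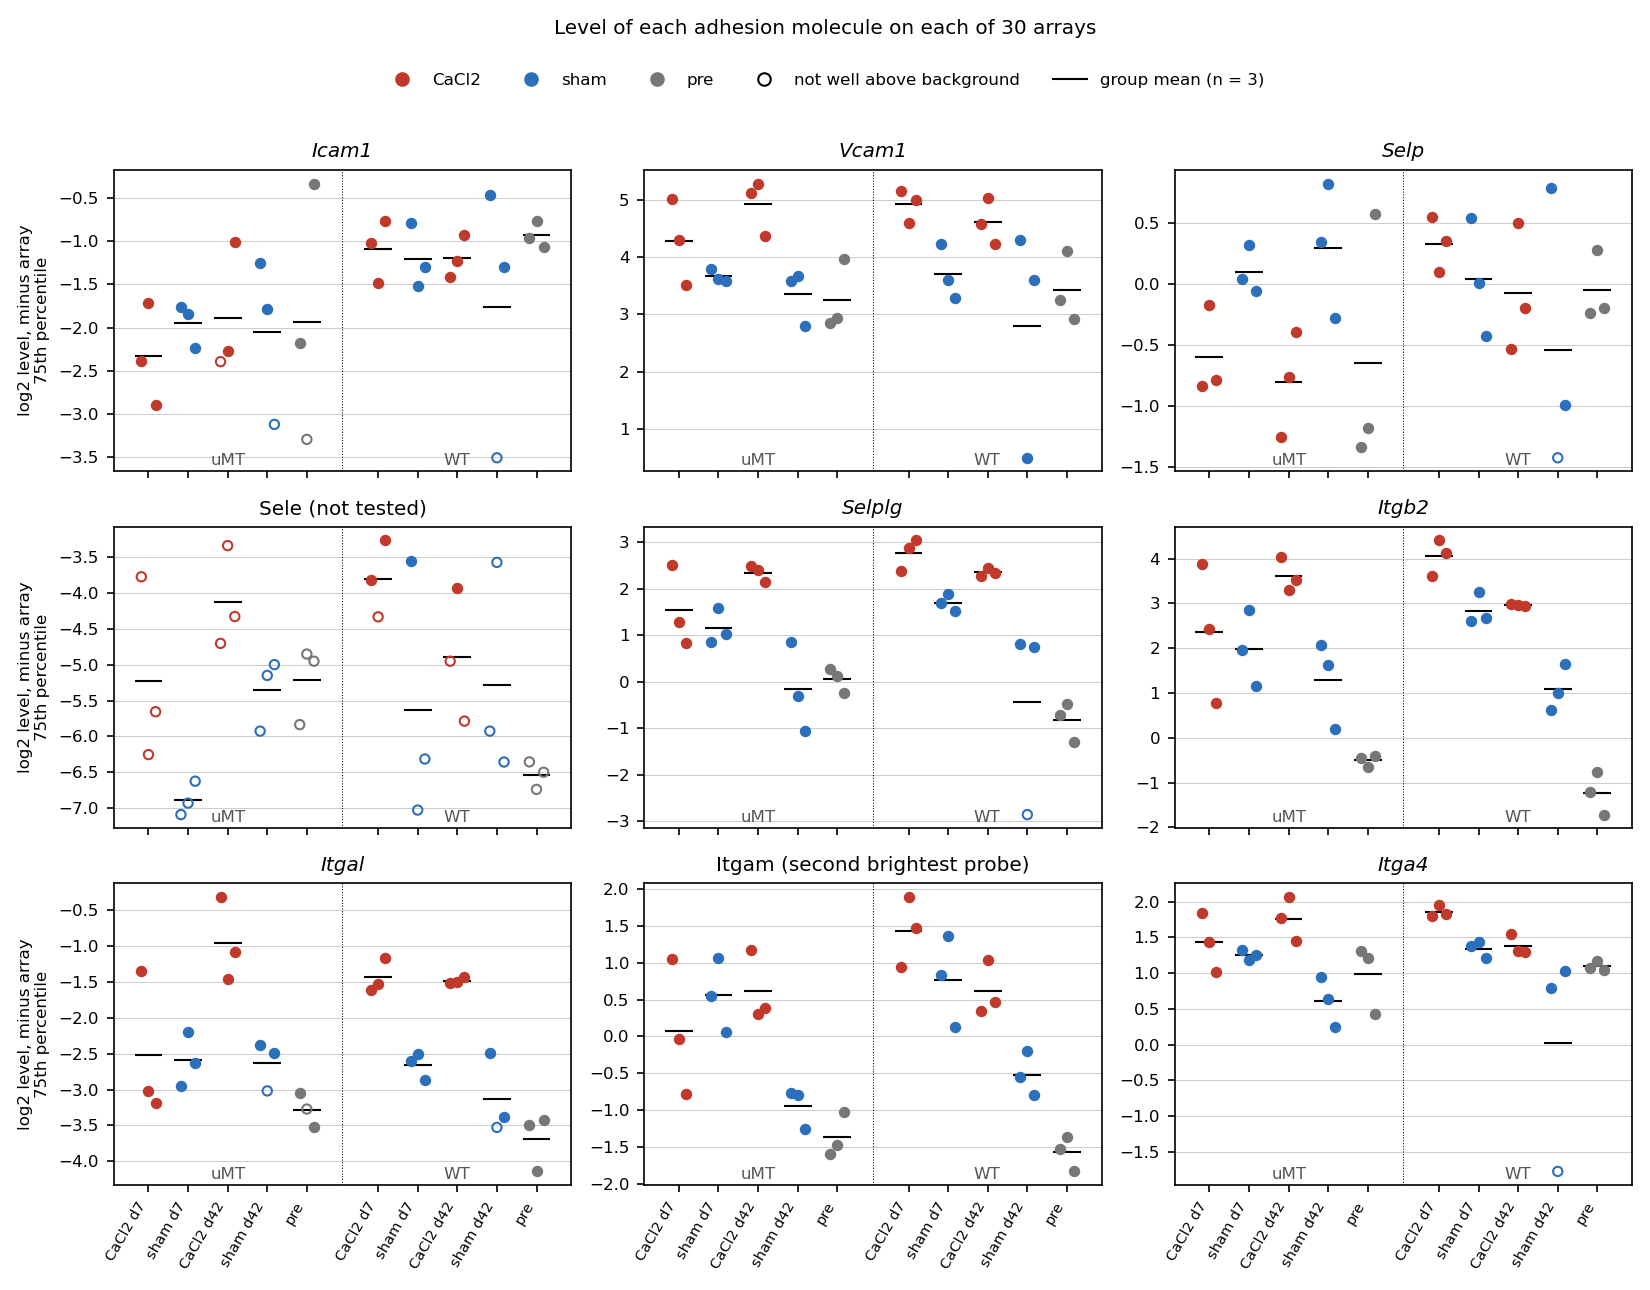
Each panel shows the log2 level (minus the 75th percentile of the array) of 1 gene on 30 arrays, by group, uMT left and WT right of the dotted line. Points are arrays, open where the probe was not well above background, and lines are means of 3. In the Selplg, Itgb2 and Itgal panels every CaCl2 day 42 point lies above every sham day 42 point of its genotype, while Icam1 shows no such step. Itgam is drawn by its second probe, and Sele was not tested.

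**Figure D2:**
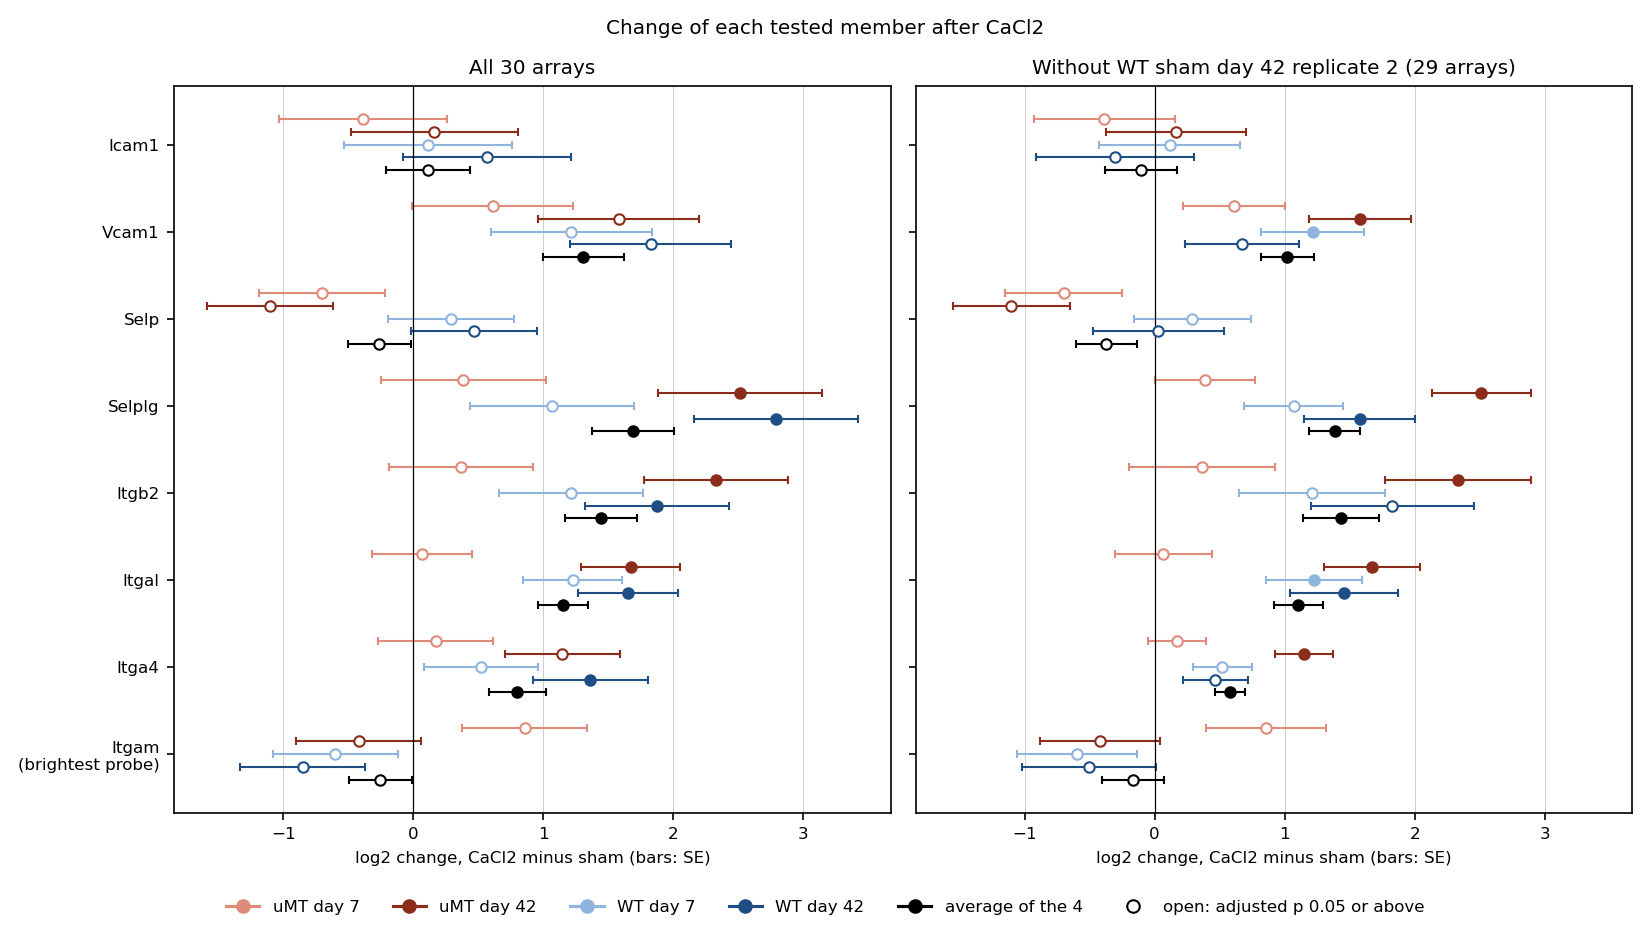
Points are log2 changes, CaCl2 minus sham, with SE bars, for 8 genes in 4 pairs of groups and on average, from 30 arrays (left) and from 29 (right). Filled points have adjusted p under 0.05. The averages (black) of Vcam1, Selplg, Itgb2, Itgal and Itga4 are filled on both sides.

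Icam1 encodes ICAM-1, the endothelial ligand of LFA-1 and Mac-1, which inflammatory cytokines induce. Its levels were -2.38, -1.72 and -2.90 in uMT CaCl2 aortas at day 7, against -1.76, -1.84 and -2.24 in uMT sham aortas. At day 42 they were -2.39, -2.27 and -1.01 after CaCl2 and -1.26, -1.79 and -3.12 after sham in uMT mice. The CaCl2 and sham ranges of Icam1 overlapped at both days in uMT mice.

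WT aortas had Icam1 levels of -1.02, -1.49 and -0.77 at day 7 after CaCl2, against -0.79, -1.52 and -1.30 after sham. At day 42 the WT levels were -1.42, -1.23 and -0.93 after CaCl2 and -0.47, -3.51 and -1.30 after sham. The value of -3.51 is the dim array, on which Icam1 was not well above background. No CaCl2 comparison of Icam1 passed the test, with changes from -0.39 to 0.57, and its level before surgery (-0.96, -0.77 and -1.07 in WT pre aortas) lay within or close to the later WT values.

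Stretches before the transcript start of Icam1 and Sele are shown because both genes are textbook targets of NF-kB. Both windows, from RefSeq on GRCm38.p6, hold the pattern GGANATTCC in capitals, read 5′ to 3′ on the plus strand. They are another build than the arrays' mm9 coordinates.
Icam1, chr9:21015777-21015806, pattern 153 bases before the start: acttcagtttGGAAATTCCtagatcgcagg
Sele, chr1:164048079-164048108, pattern 145 bases before the start: ttaactcagtGGATATTCCcagaaaacttt
Icam1 has a further pattern, TTCCCGGAA, of the kind STAT factors bind, 42 bases before its start at chr9:21015888-21015917: ggcgcgaggtTTCCCGGAAagtggccccga
Of 32851 listed windows of 250 bases, 0.819% hold GGANATTCC on either strand and 0.268% hold TTCCCGGAA. Among the 5 members with an entry, Itga4, Itgam and Selp hold neither pattern. A match of letters is no site of binding.

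Vcam1 encodes VCAM-1, the vessel wall ligand of VLA-4, which smooth muscle cells can also make. Its brightest probe (A_51_P210956, chr3:115813216-115813275, mm9, minus strand) gave 5.02, 4.30 and 3.52 in uMT CaCl2 aortas at day 7, against 3.80, 3.63 and 3.59 in uMT sham aortas. Day 42 gave 5.13, 5.29 and 4.37 after CaCl2 and 3.58, 3.68 and 2.79 after sham in uMT mice. The uMT groups overlapped at day 7 and stood apart at day 42, where the change of 1.58 ± 0.62 had an adjusted p of 0.143 with all arrays and 0.00965 without the dim array.

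In WT mice Vcam1 stood at 5.17, 4.61 and 5.0 at day 7 after CaCl2, against 4.24, 3.61 and 3.29 after sham. The day 42 values were 4.58, 5.04 and 4.24 after CaCl2 and 4.30, 0.49 and 3.60 after sham. All WT CaCl2 arrays lay above the sham arrays at day 7, and the ranges overlapped at day 42. The day 42 change was 1.82 ± 0.62 (adjusted p = 0.0606), past the threshold without sham replicate 1 (2.58) or 3 (2.23), or 0.67 (adjusted p = 0.336) without the dim array. The day 7 change of 1.22 had an adjusted p of 0.277 with all arrays and 0.0359 without the dim one.

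The second Vcam1 probe (A_52_P520495, chr3:115828953-115829012) rose by 0.68 ± 0.18 on average (adjusted p = 0.0055 in a fit of all 33228 kept probes). It read 2.98 on the dim array, its highest value of all 30, where the brightest probe read 0.49, its lowest. Its WT day 42 change was 0.04 ± 0.35.

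Selp encodes P-selectin, stored in endothelial cells and platelets and brought to the surface within minutes, a step that array levels do not see. Its probe (A_51_P211854, chr1:166079660-166079719) was printed as 10 spots, which were averaged. In uMT mice Selp was at -0.83, -0.17 and -0.78 at day 7 after CaCl2, against 0.05, 0.32 and -0.05 after sham. It was at -1.25, -0.76 and -0.39 at day 42 after CaCl2, against 0.35, 0.83 and -0.28 after sham. Both uMT CaCl2 groups lay below their sham groups with no overlap, with changes of -0.70 ± 0.48 (adjusted p = 0.530) and -1.10 ± 0.48 (adjusted p = 0.206).

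WT aortas had Selp at 0.55, 0.10 and 0.35 at day 7 after CaCl2, against 0.54, 0.01 and -0.42 after sham. Day 42 levels were -0.53, 0.51 and -0.19 after CaCl2 and 0.79, -1.42 and -0.99 after sham. These ranges overlapped. The uMT response of Selp minus its WT response was -0.99 ± 0.69 at day 7 (adjusted p = 0.9999) and -1.57 ± 0.69 at day 42 (adjusted p = 0.774).

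Sele encodes E-selectin, made by endothelium on demand. Its only probe (A_51_P455326, chr1:165987726-165987785) was well above background on 4 of 30 arrays, so the filter on dim probes left it out of the tests. These arrays were WT CaCl2 day 7 replicates 1 and 3 (-3.82 and -3.26), WT CaCl2 day 42 replicate 2 (-3.93) and WT sham day 7 replicate 1 (-3.56). None of the 15 uMT arrays passed, nor any WT pre array. Yet the highest uMT levels, -3.34 at CaCl2 day 42 and -3.77 at CaCl2 day 7, lay among the levels of those 4 arrays. The flag alone therefore does not show a lower level in uMT mice.

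Selplg encodes PSGL-1, the selectin ligand of nearly all leukocytes. By its brightest probe (A_51_P131358, chr5:114267807-114267834, minus strand) it stood at 2.52, 1.29 and 0.84 in uMT CaCl2 aortas at day 7, against 0.86, 1.59 and 1.04 in uMT sham aortas. Day 42 levels were 2.49, 2.41 and 2.14 after CaCl2 and 0.86, -0.30 and -1.05 after sham in uMT mice. The day 42 arrays did not overlap, and Selplg rose by 2.51 ± 0.63 there (adjusted p = 0.0174). The call was lost without sham replicate 2 (2.44) or 3 (2.07), or CaCl2 replicate 1 (2.44) or 2 (2.48). The day 7 arrays overlapped, with a change of 0.39 ± 0.63.

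In WT mice Selplg was at 2.39, 2.88 and 3.04 at day 7 after CaCl2, against 1.71, 1.89 and 1.52 after sham. Day 42 had 2.27, 2.46 and 2.34 after CaCl2 and 0.81, -2.86 and 0.75 after sham. Both days stood apart without overlap. The day 42 change was 2.79 ± 0.63 (adjusted p = 0.0066) with all arrays and 1.58 (adjusted p = 0.0211) without the dim array, which held the value of -2.86. The second Selplg probe (A_55_P1976212) rose by 1.06 ± 0.22 on average.

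Itgb2 encodes the beta chain shared by LFA-1 and Mac-1 and is made by leukocytes. Its probe (A_51_P262208, chr10:77027978-77028037) was well above background on all 30 arrays. The uMT levels were 3.89, 2.42 and 0.77 at day 7 after CaCl2, against 1.97, 2.86 and 1.15 after sham. At day 42 the uMT levels were 4.03, 3.31 and 3.53 after CaCl2 and 2.07, 1.62 and 0.20 after sham. The uMT arrays overlapped at day 7 and not at day 42, where Itgb2 rose by 2.33 ± 0.55 (adjusted p = 0.0122). That call was lost without sham replicate 3 (1.78) or CaCl2 replicate 1 (2.13).

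In WT aortas Itgb2 read 3.62, 4.41 and 4.13 at day 7 after CaCl2, against 2.62, 3.25 and 2.66 after sham. Its day 42 levels were 2.99, 2.96 and 2.94 after CaCl2 and 0.63, 0.99 and 1.65 after sham. CaCl2 arrays lay above sham arrays at both days. The day 7 change of 1.21 ± 0.55 missed the threshold (adjusted p = 0.217), and the day 42 change was 1.88 ± 0.55 (adjusted p = 0.0312 with all arrays, 0.0583 without the dim one). It was also lost without sham replicate 1 (1.64) or any 1 of the CaCl2 arrays (1.86, 1.88 and 1.89).

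Itgb2 also differed between sham and pre aortas, the comparison without CaCl2. The pre levels were -0.45, -0.64 and -0.40 in uMT mice and -1.21, -0.76 and -1.71 in WT mice, below every operated array of the same genotype. Sham aortas exceeded pre aortas by 2.49 (adjusted p = 0.0198) at day 7 and 1.79 (adjusted p = 0.0297) at day 42 in uMT mice. In WT mice the excess was 4.07 (adjusted p = 0.000148) at day 7 and 2.32 (adjusted p = 0.0896) at day 42. WT sham day 7 and WT pre shared a slide.

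Selplg rose after sham at day 7 in WT mice as well, by 2.53 (adjusted p = 0.0297), with levels of 1.71, 1.89 and 1.52 in sham aortas, against -0.70, -0.47 and -1.29 in pre aortas. In that comparison 2 of 8 members were called, where 2.37% of gene names were. In the other sham comparisons 1 of 8 was called in uMT day 7 (2.54% of gene names), 2 of 8 in uMT day 42 (17.4%), 1 of them Itgam by its brightest probe, and none in WT day 42 (0.168%). WT day 42 rests on 2 sham arrays besides the dim one.

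Itgal encodes the alpha chain of LFA-1, the form on lymphocytes and other leukocytes. Its brightest probe (A_51_P466378, chr7:134477160-134477219) read -1.35, -3.03 and -3.19 in uMT CaCl2 aortas at day 7, against -2.94, -2.20 and -2.62 in uMT sham aortas. It read -0.32, -1.47 and -1.09 at day 42 after CaCl2, against -2.39, -3.02 and -2.49 after sham. At day 42 the uMT groups stood apart, by 1.67 ± 0.38 (adjusted p = 0.00928). The call was lost without sham replicate 2 (1.48) or CaCl2 replicate 1 (1.35). Between the uMT CaCl2 groups, day 42 exceeded day 7 by 1.56 (adjusted p = 0.0476), the only member called there, where 0.971% of gene names were, and none was called between the WT days (0.55%). These 6 arrays filled 1 slide.

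WT Itgal levels were -1.61, -1.53 and -1.16 at day 7 after CaCl2, against -2.60, -2.51 and -2.86 after sham. At day 42 they were -1.51, -1.51 and -1.44 after CaCl2 and -2.50, -3.53 and -3.38 after sham. No CaCl2 array overlapped with a sham array. The day 7 change of 1.22 ± 0.38 had an adjusted p of 0.0546 with all arrays and 0.026 without the dim one, and the day 42 change of 1.65 ± 0.38 had 0.00753 and 0.0265.

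The other Itgal probes did not move alike. A_55_P2184601, close to the brightest one at chr7:134477064-134477123, rose by 1.22 ± 0.24 on average. It was well above background on 18 of 30 arrays, on none of the 6 pre arrays and on 1 of 3 uMT sham day 42 arrays. A_55_P2184606, further upstream at chr7:134474711-134474767, changed by 0.05 ± 0.17.

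Itga4 encodes the alpha chain of VLA-4, found on lymphocytes, monocytes and some tissue cells. By its brightest probe (A_55_P2040026, chr2:79173193-79173252) the levels in uMT mice were 1.84, 1.43 and 1.01 at day 7 after CaCl2, against 1.32, 1.19 and 1.26 after sham. At day 42 they were 1.76, 2.06 and 1.45 after CaCl2 and 0.94, 0.64 and 0.25 after sham. The day 42 change of 1.15 ± 0.44 had an adjusted p of 0.134 with all arrays and 0.00171 without the dim array.

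In WT mice Itga4 was at 1.80, 1.96 and 1.83 at day 7 after CaCl2, against 1.38, 1.44 and 1.21 after sham. At day 42 it was at 1.54, 1.30 and 1.29 after CaCl2 and 0.80, -1.77 and 1.03 after sham. The arrays did not overlap at either day. The day 42 change of 1.36 ± 0.44 (adjusted p = 0.0497) was 0.47 (adjusted p = 0.227) without the dim array, which read -1.77. Without any 1 of the CaCl2 arrays it missed the threshold too, at 1.28, 1.40 and 1.41. The second Itga4 probe (A_66_P140103) was not called on average after CaCl2. In WT mice its CaCl2 and sham means were -2.71 and -3.07 at day 7, and -3.33 and -3.44 at day 42. In uMT mice they were -3.92 and -3.51 at day 7, and -3.68 and -4.72 at day 42, where no array was well above background.

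Itgam encodes the alpha chain of Mac-1, carried by monocytes, macrophages and neutrophils, and its 3 probes disagreed. The first 30 of the 60 bases of each are shown, because the brightest begins with a run of CA (in capitals) and the others do not. All are on the plus strand of mm9.
A_55_P1977934, chr7:135261755-135261814, brightest: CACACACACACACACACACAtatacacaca
A_55_P1977929, chr7:135260275-135260334, second: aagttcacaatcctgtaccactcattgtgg
A_55_P1977926, chr7:135212140-135212199, least bright: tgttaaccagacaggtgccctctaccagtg
Over the 30 arrays, the Spearman correlation with Itgb2, the partner chain, was -0.41 for the brightest probe, 0.91 for the second and 0.68 for the last. Another 33 kept probes hold a run of 8 or more CA. Their median correlation with the brightest Itgam probe was 0.98, and 32 of them exceeded 0.9. The 71 kept probes with a run of TG had a median of -0.68, and 0 of them exceeded 0.9. Of the 33123 kept probes with neither a CA nor a TG run, 0.0815% did, with a median of 0.01. These correlations are descriptions across arrays that share slide and depth, and carry no test.

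**Figure D3:**
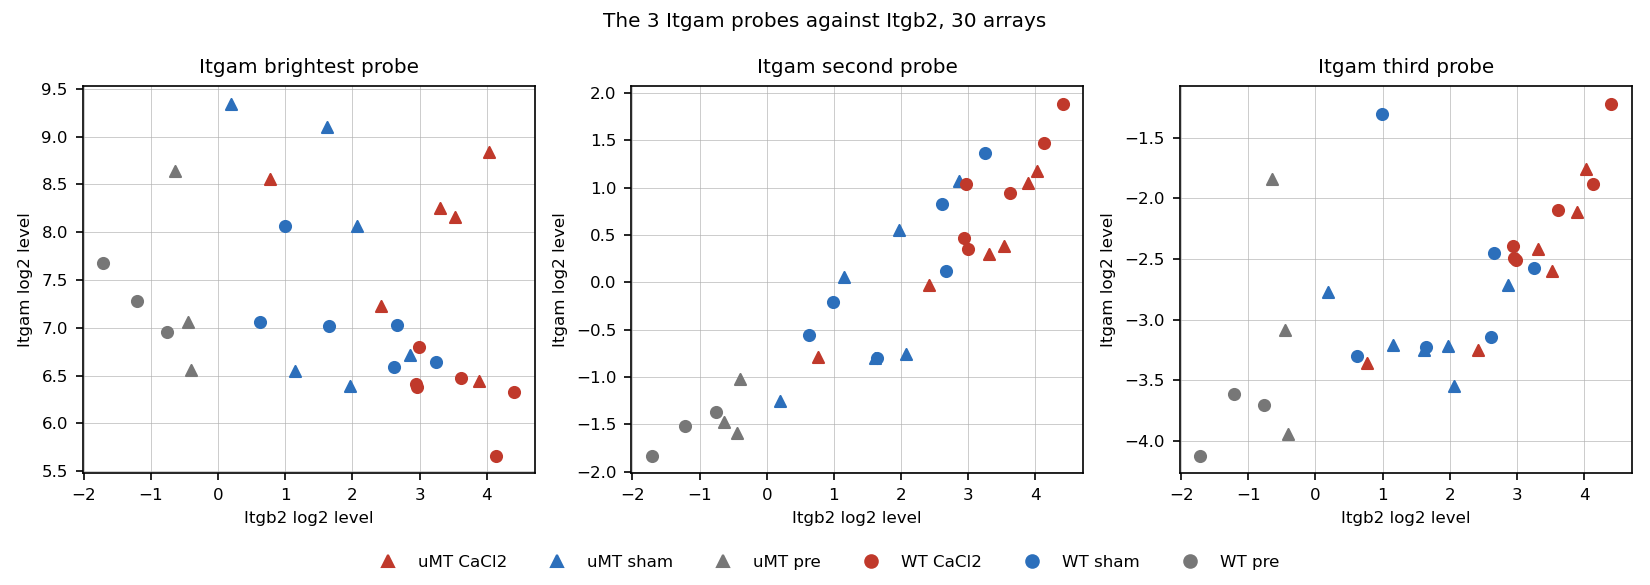
Each panel sets the log2 level of 1 Itgam probe (vertical) against that of Itgb2 (horizontal) on 30 arrays, triangles for uMT and circles for WT, coloured by condition. The second probe climbs with Itgb2 (rho 0.91), the least bright less so (0.68), and the brightest falls (-0.41).

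By the second probe Itgam stood at 1.05, -0.03 and -0.79 in uMT CaCl2 aortas at day 7, against 0.55, 1.07 and 0.06 in uMT sham aortas. At day 42 it stood at 1.17, 0.30 and 0.38 after CaCl2 and -0.76, -0.79 and -1.25 after sham. The uMT day 42 arrays stood apart, with a change of 1.55 ± 0.39 (adjusted p = 0.0196).

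WT values of that probe were 0.94, 1.89 and 1.47 at day 7 after CaCl2, against 0.83, 1.36 and 0.12 after sham. At day 42 they were 0.35, 1.03 and 0.46 after CaCl2 and -0.56, -0.20 and -0.80 after sham. The day 42 arrays did not overlap, but the change of 1.13 ± 0.39 missed the threshold (adjusted p = 0.0665). On average the second probe rose by 0.72 ± 0.20 (adjusted p = 0.00789), and sham exceeded pre at day 7 by 1.92 in uMT (adjusted p = 0.0114) and by 2.34 in WT mice (adjusted p = 0.0013). The last of them, A_55_P1977926, changed by 0.55 ± 0.24 on average (adjusted p = 0.094). The second probe was chosen after the values were seen.

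At the level of single pairs, uMT day 42 had 3 members called (Selplg, Itgb2 and Itgal), where 6.33% of gene names were, and uMT day 7 had none, where 0.894% were. WT day 42 had 4 (Selplg, Itgal, Itgb2 and Itga4), where 10.4% were, and WT day 7 none, where 6.59% were. Without the dim array the counts were 5 in uMT day 42 (15% of gene names), 0 in uMT day 7 (9.82%), 2 in WT day 42 (12.3%) and 2 in WT day 7 (18.4%). At WT day 7, 6 of 8 members had CaCl2 and sham arrays that did not overlap, as had 51.9% of all gene names. In uMT day 42 it was 6 of 8 (26.5% of gene names), in WT day 42 5 of 8 (19.8%), and in uMT day 7 1 of 8 (34.9%). These counts and shares take either direction. Among them Selp was lower after CaCl2 in uMT mice (-0.70 at day 7, -1.10 at day 42). Itgam, by its brightest probe, was lower in WT mice (-0.60 at day 7, -0.85 at day 42).

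The slide runs with the groups and limits these results. All 6 uMT CaCl2 arrays lay on a slide of their own, and all 6 WT CaCl2 arrays lay on a slide with 1 WT sham array, day 42 replicate 3, and 1 uMT pre array. Against that 1 array, WT CaCl2 day 42 arrays were higher by 1.60 for Selplg, 1.90 for Itgal, 1.32 for Itgb2, 1.02 for Vcam1 and 0.35 for Itga4, with no test. They were also higher by 0.92 for Selp and 0.11 for Icam1, and lower for Itgam by its brightest probe (-0.48). With slide as a random block no member was called on average, with a within-slide correlation of 0.78. That correlation was -0.07 without the dim array, and then 5 of 8 members were called on average, where 53.4% of all gene names were. In uMT mice no slide held both CaCl2 and sham arrays at either day, so slide and treatment cannot be told apart there. The WT day 7 groups lay on different slides, linked only by WT sham day 42 replicates 1 and 3. With slide as a fixed block 0 of 8 members were called at WT day 7, where 0.331% of gene names were. Changes in that fit were 0.19 for Itgb2, 0.29 for Itga4, 1.91 for Vcam1, 2.07 for Selp and 2.11 for Itgal.

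Genotype runs with the slide too. Of the uMT arrays only pre replicate 1 lay on a slide with WT arrays. In the average over the 5 conditions slide and genotype therefore cannot be told apart. Slide also limits the genotype comparisons below, that of the responses to CaCl2 included. Between genotypes, averaged over the 5 conditions, 1 of 8 members differed, where 2.97% of gene names did. This was Itgam by its brightest probe, higher in uMT by 0.90 ± 0.21 (adjusted p = 0.0235; lost without WT CaCl2 day 7 replicate 3, at 0.85), while A_55_P1977929 and A_55_P1977926 gave -0.36 ± 0.18 (adjusted p = 0.294) and -0.20 ± 0.21 (adjusted p = 0.700). Icam1 was lower in uMT by -0.80 ± 0.29 on the log2 scale, which did not pass (adjusted p = 0.140). Without the dim array the Icam1 difference was -0.97 (adjusted p = 0.00927), with 25.9% of gene names called. It also passed without uMT pre replicate 3 (-0.96), the array with the highest Icam1 level (-0.34). In all it passed in 5 of 44 alternatives. Icam1 was well above background on 12 uMT and 14 WT arrays. The other 6 differed by -0.27 to 0.08, none of them called with or without the dim array.

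Within single conditions, the brightest Itgam probe was called higher in uMT at CaCl2 day 42 (1.89 ± 0.48, adjusted p = 0.0497, 1.31% of gene names called). With all 30 arrays no member was called between the genotypes before surgery (0.0903%), after sham at day 7 (0.0172%) or day 42 (4.13%), or after CaCl2 at day 7 (0.219%). That Itgam probe, with the dim array left out, was also called at sham day 42 (1.80, adjusted p = 0.0119), where 33.3% of gene names were, and at CaCl2 day 42 its adjusted p was 0.0106, where 15.4% were.

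The second Itga4 probe (A_66_P140103) was lower in uMT by -0.81 ± 0.11 (adjusted p = 0.000334), where the brightest probe gave 0.07 ± 0.20. It was well above background on 21 of 30 arrays, and on none of the 6 uMT arrays of day 42.

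The response to CaCl2 was also compared between genotypes. No member was called in the uMT response minus the WT response at day 7 (0 of 23268 gene names called) or at day 42 (0.107% called). At day 42 the 95% intervals of this difference were -2.12 to 1.57 for Selplg, -1.17 to 2.07 for Itgb2, -1.09 to 1.14 for Itgal, -2.06 to 1.57 for Vcam1 and -1.50 to 1.07 for Itga4. Over 29 arrays, without the dim one, they were -0.25 to 2.12 for Selplg, -1.25 to 2.25 for Itgb2, -0.94 to 1.37 for Itgal, -0.32 to 2.13 for Vcam1 and -0.02 to 1.38 for Itga4.

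Set against pre aortas, with surgery and CaCl2 together, Itgb2 was higher at both days and in both genotypes. The excess was 2.86 at day 7 and 4.12 at day 42 in uMT mice, and 5.28 and 4.19 in WT mice. Selplg was higher in 3 of the 4 comparisons, by 2.29 at uMT day 42, 3.59 at WT day 7 and 3.18 at WT day 42, and by 1.49 at uMT day 7 (adjusted p = 0.112 with all arrays, 0.00518 without the dim one). Itgal was called in the same 3, at 2.32, 2.25 and 2.20. Vcam1 was higher at uMT day 42, by 1.67 (adjusted p = 0.0432), and was called in all 4 comparisons without the dim array, with changes from 1.02 to 1.67. Itga4 was called at uMT day 42 (0.77) and WT day 7 (0.76), in both only without the dim array. The share of all gene names called was 16.1% at uMT day 7, 31% at uMT day 42, 20.8% at WT day 7 and 16% at WT day 42, and without the dim array 34.2%, 48.6%, 34.1% and 30.2% in the same order. These comparisons share their pre arrays with those of sham above.

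Across the 30 arrays Selplg, Itgb2, Itgal, Itga4 and Vcam1 had pairwise Spearman correlations from 0.66 to 0.93. Icam1 and Selp had a correlation of 0.64 with each other and of -0.10 to 0.30 with those 5. The brightest Itgam probe had correlations of -0.52 to -0.25 with the other members. With group means removed, over 29 arrays without the dim one, Vcam1 had 0.60 with Selp, 0.46 with Icam1, 0.48 with Selplg, 0.47 with Itgb2, 0.24 with Itga4 and 0.18 with Itgal. The genes most like Selplg were Apobr (0.98), Fcer1g (0.98) and Ptpn6 (0.98), and those most like Itgb2 were Lilra6, Gm14548 and Gm10693 (all 0.98 or 0.99). Itgal was most like Gpsm3, Cd68 and Lgals3 (0.90 each), Vcam1 like Abcc4, Ipmk and Ptchd1 (0.90 each) and Itga4 like Rab15, Nfatc2 and Fap (0.88 to 0.89). Icam1 was most like Mvp, Klhl6 and Dbnl (0.80 to 0.83), and Selp like Slc12a7, Gpr4 and Dennd3 (0.80 to 0.84). The brightest Itgam probe was most like Hexim2, Idua and Proser3 (0.9947 each), a correlation that only kept probes with a run of CA reached. With 29 arrays Itgal was most like Fcho1, Stat4 and Tnni2 (0.90 to 0.91), Itgb2 like Dpep2, Mpeg1 and Gm14548 (0.99 each), Selp like Slc12a7, Nrarp and Tie1 (0.82 each) and the brightest Itgam probe like Proser3, Fgf23 and Hexim2.

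Cell type markers moved with the leukocyte members. All 5 general leukocyte markers (Ptprc, Laptm5, Coro1a, Cd53 and Cd52) rose on average, with a median change of 1.53. So did 11 of 11 macrophage and monocyte markers, with 1.37, where 27.1% of all gene names were called. The summed leukocyte level was 5.20 to 6.97 in uMT CaCl2 and 5.06 to 5.78 in uMT sham aortas at day 7, and 6.67 to 7.27 and 3.37 to 5.40 at day 42. In WT aortas it was 6.98 to 7.52 after CaCl2 and 5.65 to 6.00 after sham at day 7, and 6.88 to 7.25 and 2.70 to 5.13 at day 42. In WT pre aortas it was 3.08 to 3.44, and in uMT pre aortas 3.94 to 4.26. The part of cell number in the changes of Itgb2, Selplg and the other members was not tested.

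Of 9 measured T and NK cell markers 5 rose on average, and of 9 neutrophil markers 4 did, among them S100a8 and S100a9. The marker counts here stand beside 27.1% of all gene names called on average, and 45.0% over the 29 arrays. Of 10 endothelial markers 1 rose (Cldn5) and 3 fell (Pecam1, Tek and Vwf). Their summed level was 6.15 to 7.00 in uMT CaCl2 and 6.86 to 7.83 in uMT sham aortas at day 42, and 6.05 to 6.90 and 6.01 to 10.1 in WT aortas, the highest being that of 1 sham array. All 6 smooth muscle markers fell, by a median of -1.78, and so did 2 of 3 adipocyte markers, by a median of -1.54 over the 3. With all 30 arrays none of 5 B cell markers passed in either direction, nor did any of 3 skeletal muscle markers. Of 6 fibroblast markers 3 rose, of 6 lymph node vessel and stroma markers 2 rose, and of 4 platelet markers 2 rose and 1 fell. Over the 29 arrays 6 of 9 T and NK cell, 6 of 9 neutrophil and 4 of 6 lymph node markers were higher, and 3 of 3 adipocyte markers were lower, with a median of -1.86. The part of these cell types in the values of Vcam1, Icam1 and Selp was not tested.

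Of 86 further genes of leukocyte trafficking, 76 were measured. Of all gene names 27.1% were called on average after CaCl2, a share that also stands beside the counts by role below. Of the 76 genes, 43 were higher and 10 lower on average, with a median change of 0.75, beside 0.02 over all gene names. The counts were 1 and 0 at uMT day 7 (0.894% of all gene names), 28 and 5 at uMT day 42 (6.33%), 17 and 3 at WT day 7 (6.59%), and 28 and 3 at WT day 42 (10.4%). Without the dim array they were 47 and 13 on average (45.0%), 7 and 0 (9.82%), 35 and 8 (15%), 30 and 7 (18.4%), and 27 and 6 (12.3%) in the same order.

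Of 7 further selectin ligands measured, 3 rose and none fell. Glycam1, a mucin, rose by 3.27 ± 0.40 on average, Spn (CD43) by 1.79 ± 0.19 and Cd44 by 1.52 ± 0.20. Madcam1 (0.43), Glg1 (-0.16), Cd34 (-0.22) and Podxl (-0.78) did not pass, and without the dim array Madcam1 was higher (0.65, adjusted p = 0.0408) and Podxl lower (-0.95, adjusted p = 0.0227). Of 7 enzymes that build the ligands' sugars 4 rose. Fut7, the fucosyltransferase that completes selectin ligands on leukocytes, rose by 1.33 ± 0.20 and Fut4 by 1.32 ± 0.24, beside St3gal4 (0.78 ± 0.17) and B4galt1 (0.66 ± 0.15).

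Other integrins split, with 3 of 10 higher and 4 lower. Itgax, the alpha chain of a further Itgb2 partner (CD11c), rose by 2.48 ± 0.42 and Itgb7, an alternative partner of Itga4, by 1.57 ± 0.20. Itga2 rose by 0.83 ± 0.23, and Itga9 fell, by -1.43 ± 0.28. Itgb1, the partner chain in VLA-4, fell by -1.87 ± 0.37 at WT day 42.

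The immunoglobulin-type ligands and junction molecules also split, with 5 of 17 higher and 5 lower. Sirpa, a myeloid receptor for CD47, rose by 1.88 ± 0.20, Thy1 by 1.51 ± 0.21 and Alcam by 0.95 ± 0.18. Pecam1, which guides leukocytes between endothelial cells, fell, at -1.21 ± 0.24. Icam2, an endothelial ligand of LFA-1 that needs no induction, was lower at uMT day 42 by -1.85 ± 0.48 (adjusted p = 0.0217).

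Genes that switch integrins on rose in 9 of 12 cases and fell in 1. Skap1 rose by 2.25 ± 0.35, Lcp1 by 1.98 ± 0.26, Coro1a by 1.85 ± 0.21 and Rassf5, the adaptor that links Rap1 to LFA-1, by 1.70 ± 0.18. Coro1a is also on the leukocyte marker list, Pecam1 and Cdh5 are on the endothelial one and Cxcr2 is on the neutrophil one. Glycam1, Madcam1, Ccl19 and Ccl21a are on the lymph node list too, so the marker and trafficking counts share genes. Between genotypes Fyb (ADAP) was lower in uMT, at -0.64 ± 0.14 (adjusted p = 0.0176), as was Jam2, at -0.48 ± 0.12 (adjusted p = 0.0371). They were the 2 of 76 trafficking genes called between genotypes, where 2.97% of all gene names were. With the dim array left out 1 (Itga1) was higher and 13 were lower in uMT, where 25.9% of all gene names were called.

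Of 9 inducers of the endothelial ligands and regulators of those inducers, 5 rose. Il1b rose by 4.70 ± 0.40, Tnf by 1.63 ± 0.29, Tnfaip3, whose product A20 is an inhibitor of NF-kB signalling, by 1.30 ± 0.24 and Relb by 0.81 ± 0.13, beside the change of 0.12 ± 0.32 in Icam1. Il1b was the single trafficking gene called at uMT day 7, at 3.36 ± 0.81 (adjusted p = 0.0484). All 13 arrest chemokines and receptors measured rose on average, led by Cxcl5 (4.52 ± 0.45), Cx3cr1 (2.93 ± 0.44), Ccr7 (2.90 ± 0.42) and Ccl2 (2.45 ± 0.42).

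**Figure D4:**
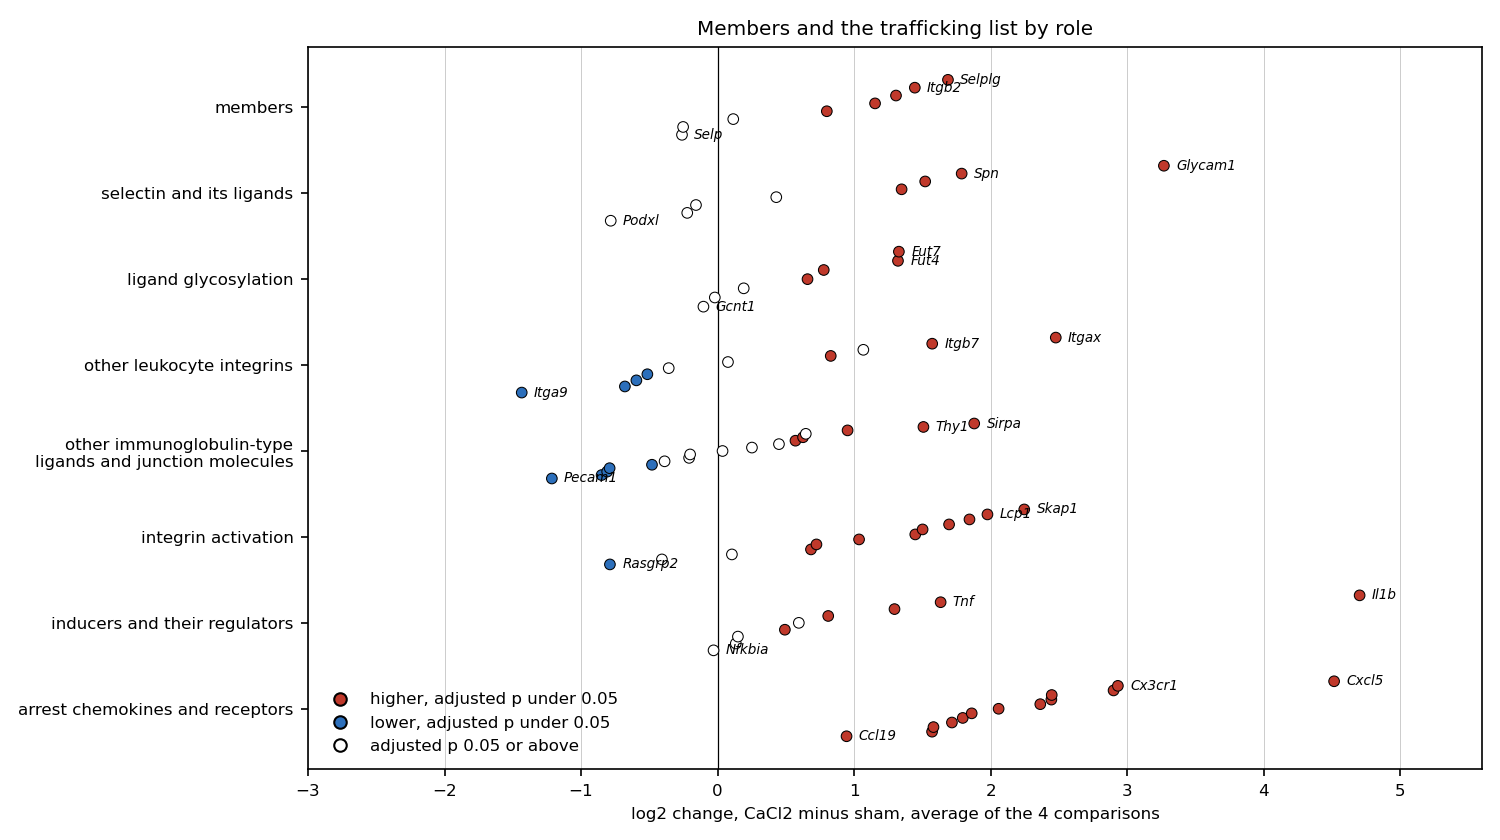
Each point is the average log2 change, CaCl2 minus sham, of 1 gene, for the 8 tested members (top row) and 76 genes of leukocyte trafficking by role. Red points rose, blue points fell and white points did not pass (adjusted p under 0.05). All 13 arrest chemokines and receptors are red, and integrins and junction molecules lie on both sides of 0.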

How the data were processed

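The deposited scanner files hold spot intensity after background subtraction. Their headers name version 10.7.1.1 of Agilent's Feature Extraction software, and the submitters' processing notes 9.5.1.1. The authors also deposited a table of processed intensity values on a linear scale, quantile-like in its columns, used as an alternative. Coordinates in the files are mm9, and the files do not say in which exon a probe lies. The labels and the design text name different RNA kits.

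Unflagged spots of a probe were averaged, log2 was taken and the 75th percentile of each array subtracted. Probes well above background on all 3 arrays of at least 1 group were kept (33228), with the brightest probe per gene name. limma 3.58.1 in R 4.3.3 fitted 1 mean per group over 30 arrays, which leaves 20 residual degrees of freedom, with Benjamini-Hochberg adjustment per comparison. The number of arrays limits the precision. On simulated data, 100 of 23268 genes changed by 2 on the log2 scale and another 100 by 1, with independent noise and no slide effect or dim array. Of the changes of 2, the fit called 66.0% at WT day 42, 65.0% at uMT day 42 and 98.0% on average. For changes of 1 it called 12.0%, 10.0% and 74.0%. These shares hold for that setting and do not give the power in the data, where more gene names were called.

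The members and gene lists were chosen with earlier results of these data known. Named were all members, up to 4 genes of each role with the largest called changes, and the 3 genes most alike. Samples were not treated as paired by replicate number: in none of the 4 CaCl2 comparisons did all 3 same-numbered pairs deviate together. Alternatives covered scaling, filters, probe choice, slide, array weights and single arrays left out. The second Itgam probe in place of the brightest, and the fits of the list and of all comparisons without the dim array, were added after the data were seen. Some results of single genes in the lists are not reported here.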

Additional observations from a re-analysis of the deposited data

Results flagged for a closer look

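The genes were tested by their brightest probe, and several other member probes, which no comparison between groups rested on, gave signals past the threshold in the fit of all kept probes. On average over the 4 pairs of CaCl2 and sham groups the second probes of Vcam1 (0.68), Selplg (1.06) and Itgam (0.72) and the Itgal probe A_55_P2184601 (1.22) were higher after CaCl2. In uMT day 42 alone this was so for that Itgal probe (2.23), well above background on 3 of 3 CaCl2 arrays and 1 of 3 sham arrays there, and for the second Itgam probe (1.55), and in WT day 42 for the second Selplg probe (1.84). The second Itga4 probe was lower in uMT than in WT aortas, at -0.81 on the log2 scale. The groups hold 3 arrays, so no search for single outlying arrays was made, and no member's response to CaCl2 was called different between the genotypes.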

How the results depend on the processing

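On average over the 4 pairs of groups, 5 or 6 members were called under the settings run, except slide as a random block, under which it was 0. The share of all gene names called was 0% under that block and 16 to 54.6% under the others. The other counts moved more. The share of all 23268 gene names called under the same setting stands in brackets. At WT day 7 (0 members, 6.59%) it was 1 with the 75th percentile taken over probes above background on all arrays (7.01%), 1 with the mean of a gene's probes (7.74%), 4 with slide as a random block without the dim array (25.9%), 5 with only the groups compared (33.7%), 5 with array weights (50.8%), 3 without the 6 arrays that had the fewest probes above background (23.9%), and 2 with Itgam by its second probe and the dim array left out (18.4%). At WT day 42 (4 members, 10.4%) it was 1 with slide as a random block (4.58%), 1 with slide as a fixed block (4.11%), 0 with only the groups compared (0%), 2 without the 6 arrays (17.3%) and 2 with the second Itgam probe and no dim array (12.3%). At uMT day 42 (3 members, 6.33%) it was 5 with the mean of probes (6.64%), 0 with slide as a random block (0%), 5 with that block without the dim array (21%), 1 with only the groups compared (2.66%), 6 with array weights (27.1%, 5 of the 6 higher), 0 without the 6 arrays (0.193%) and 6 with the second Itgam probe and no dim array (15%). Without the 6 arrays uMT day 42 is 1 CaCl2 array (replicate 3) against 1 sham array (replicate 1), assumed to vary like the other groups, and nothing is read from its values. Between genotypes (1 member, 2.97%) it was 0 with the mean of probes (2.9%), 0 with slide as a random block (0.0086%), 3 with that block without the dim array (45.7%, 2 of the 3 lower in uMT), 3 with array weights (37.9%, 2 of the 3 lower in uMT), 0 without the 6 arrays (1.06%) and 0 with the second Itgam probe (2.94%). The cause was not tested. Leaving out 1 replicate at a time gave 0 to 2 at WT day 7, 2 to 5 at WT day 42, 0 to 5 at uMT day 42 and 0 to 2 between genotypes.

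With the replicate number as a block, 1 member was called at WT day 7 (5.96%), 3 at WT day 42 (9.76%), 3 at uMT day 42 (6.14%) and 5 on average (26.4%). Correlations of the deviations of same-numbered arrays ran from -0.38 to 0.21. With 3 arrays a group they cannot exclude a pairing of the samples.

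Among the changes that turned sign, only that of Itgam between genotypes was called with the processing used above. Itgam after CaCl2 was 0.35 at WT day 7, 0.14 at WT day 42, 0.69 at uMT day 42 and 0.34 on average with the mean of its probes. With its second probe it was 0.66, 1.13, 1.55 and 0.72, with -0.48 at uMT day 7 and -0.36 between genotypes, and without the dim array also 1.29 at WT day 42, 0.76 on average and -0.32 between genotypes. Without the 6 arrays it was 0.10 at uMT day 42, from the 1 array in each group. Icam1 at WT day 42 was -0.34 with slide as a random block and no dim array, -0.41 with array weights and -0.30 without the 6 arrays or the dim one. On average it was -0.14, -0.14, -0.082 and -0.10 in the same order, and at uMT day 42 -0.19 with array weights. Selp was 0.39 on average with slide as a random block and -0.061 at WT day 42 with that block and no dim array. At uMT day 7 Itgal was -0.22 with slide as a random block and -0.36 with array weights, and Itga4 was -0.12 with the mean of probes. Between genotypes Itgal was -0.025 with normexp and quantile, -0.049 with the mean of probes and -0.14 with array weights. Vcam1 was -0.0063 with the other percentile, -0.26 with the mean of probes, -0.20 with slide as a random block and no dim array, -0.23 with array weights, -0.26 without the 6 arrays and -0.23 without the dim one. Itga4 was -0.37, -0.13, -0.076, -0.13 and -0.11 under the last 5 of these. Selplg was 0.30 with slide as a random block.

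Leaving out 1 replicate at a time gave changes of both signs for Icam1 at WT day 7 (-0.048 to 0.32), WT day 42 (-0.30 to 1.21), uMT day 42 (-0.37 to 0.56) and on average (-0.10 to 0.28). It did so at uMT day 7 for Itga4 (-0.033 to 0.38), Itgal (-0.52 to 0.40), Itgb2 (-0.40 to 1.16) and Selplg (-0.10 to 0.74), and between genotypes for Vcam1 (-0.23 to 0.15), Itgal (-0.034 to 0.15) and Itga4 (-0.11 to 0.17). Signal over background limited Sele, and Icam1 and Itgal on the dimmer arrays.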
